A study of Mus musculus with 57 samples.

Results

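The regions described here are those with a NANOG peak in both lists 8 h after GATA6 had been switched on, the last time with NANOG lists. They were chosen by the data themselves: overlapping peaks of the 2 NANOG 8 h lists were merged, and a merged region was kept if it held a peak of both lists. This gave 474 regions, among 21857 NANOG regions found in both lists of at least 1 of the times 0, 2, 4 and 8 h. The cells were KH2 mouse embryonic stem cells, labelled as strain C57BL/6, in which doxycycline drives 1 TRE:GATA6 transgene with DsRed2. At 0 h the cells were in 2i and LIF without doxycycline, and at 2, 4 and 8 h in serum and LIF with doxycycline, so that the medium changed together with GATA6. For the 24 and 48 h samples doxycycline was taken away after 12 h. Binding was mapped by CUT&RUN, in which an antibody directs a nuclease to a protein's sites and the released fragments are sequenced, and every protein and time had 2 lists of peaks (30 lists in all). The study's reporting form says that replicates were done independently, while the labels do not say whether the 2 lists came from separate cultures, so p-values measure only the spread between these samples.

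NANOG and SOX2 are transcription factors that hold embryonic stem cells in an epiblast-like (Epi) state, and GATA6 is the factor that starts the primitive endoderm (PrE), the other lineage of the inner cell mass. NANOG and GATA6 are known to oppose each other, and NANOG is silenced as cells become PrE. GATA4, a relative of GATA6, and SOX17, a relative of SOX2, are switched on later in the PrE. GATA factors recognise the core GATA, SOX factors bind variants of ACAA, and OCT4 partners SOX2 on an octamer.

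The GATA6 lists carry peak names that disagree with the record: the lists recorded for 4 h are named 48 h, those recorded for 8 h are named 4 h, and those recorded for 48 h are named 8 h. GATA6 times below are those in the list names, and which of both is right was not tested. The lists hold no read totals, so the mean number of fragments over each base of background, worked out from pairs of fold and p-value, stands for depth. This was 1.11 and 1.30 in the NANOG 8 h lists, 0.902 and 1.17 at 0 h, 1.31 and 1.22 at 2 h, and 0.865 and 0.935 at 4 h. The 8 h lists were thus at least as deep as the 4 h lists and yet held 5510 and 2255 peaks, against 14911 and 14528 at 4 h. SOX2 lists were shallower, from 0.290 to 0.692, and the lists of induced GATA6 had between 0.928 and 1.34.

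The DNA under the findings is shown for 8 regions, each as the 201 bases around the NANOG 8 h summit, from the forward strand of GRCm38, the same build as mm10. Capitals mark matches, on either strand, to 5 words: AGATAA for GATA factors, ATGCAAAT for the octamer, ACAATG as a SOX word, ACAAAG as the other SOX word, and TAATGG for NANOG. The regions near Rbpj, Mrps23 and Hk2 had the highest 8 h folds apart from 2 unusual regions, of which that in Hectd4 is 1. Those near Klf5 and Spry2 had no NANOG peak at 0 h, and those near Gata3 and Sox2 had 1 in every NANOG list.
Rbpj, chr5:53467042-53467242: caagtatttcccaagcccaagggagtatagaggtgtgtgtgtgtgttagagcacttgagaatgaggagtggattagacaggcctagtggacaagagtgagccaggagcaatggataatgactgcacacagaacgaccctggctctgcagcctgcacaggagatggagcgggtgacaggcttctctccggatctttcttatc
Mrps23, chr11:88202094-88202294: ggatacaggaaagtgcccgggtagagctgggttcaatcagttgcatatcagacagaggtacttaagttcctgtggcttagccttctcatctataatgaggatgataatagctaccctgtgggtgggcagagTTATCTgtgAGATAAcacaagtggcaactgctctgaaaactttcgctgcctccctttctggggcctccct
Hk2, chr6:82800278-82800478: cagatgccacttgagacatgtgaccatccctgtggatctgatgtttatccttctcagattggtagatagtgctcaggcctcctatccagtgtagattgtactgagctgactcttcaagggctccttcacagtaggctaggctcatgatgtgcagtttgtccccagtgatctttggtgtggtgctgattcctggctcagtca
Klf5, chr14:99275374-99275574: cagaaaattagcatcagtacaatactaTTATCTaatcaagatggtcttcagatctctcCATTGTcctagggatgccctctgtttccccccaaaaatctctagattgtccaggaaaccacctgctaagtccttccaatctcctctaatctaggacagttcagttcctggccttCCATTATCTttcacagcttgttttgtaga
Spry2, chr14:105802729-105802929: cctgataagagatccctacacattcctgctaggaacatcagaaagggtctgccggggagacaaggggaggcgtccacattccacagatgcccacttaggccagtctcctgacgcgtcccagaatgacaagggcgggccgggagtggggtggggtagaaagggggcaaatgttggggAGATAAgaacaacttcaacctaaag
Gata3, chr2:9445989-9446189: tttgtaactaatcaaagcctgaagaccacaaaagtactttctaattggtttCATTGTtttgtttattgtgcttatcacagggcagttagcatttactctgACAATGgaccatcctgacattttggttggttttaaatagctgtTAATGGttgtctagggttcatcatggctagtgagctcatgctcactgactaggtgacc
Sox2, chr3:34761318-34761518: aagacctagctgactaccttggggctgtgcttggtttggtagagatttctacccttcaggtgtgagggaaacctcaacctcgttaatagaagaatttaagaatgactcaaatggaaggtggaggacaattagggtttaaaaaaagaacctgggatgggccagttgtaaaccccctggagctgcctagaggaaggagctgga
Hectd4, chr5:121333269-121333469: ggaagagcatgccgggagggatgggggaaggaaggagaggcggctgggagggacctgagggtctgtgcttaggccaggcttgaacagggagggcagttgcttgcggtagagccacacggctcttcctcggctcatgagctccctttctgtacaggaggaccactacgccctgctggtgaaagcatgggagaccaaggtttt

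The Mrps23 window held 2 AGATAA matches on opposite strands, and the Klf5 window held 2 of them with 1 ACAATG and 1 TAATGG, the latter overlapping an AGATAA match. The Gata3 window held 2 ACAATG matches and 1 TAATGG, and no GATA match. The windows near Rbpj, Hk2, Sox2 and in Hectd4 held none of the 5 motifs, which says only that these letters are not there.

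The paper describes NANOG as fully lost from its targets by 8 h, from the merged signal of replicates at NANOG-bound sites. The lists used here hold peaks called in each library at any site, and peaks were still called at 8 h. These are unlike measures, so the peaks do not contradict the paper's statement. Both 8 h lists together formed 7277 merged regions, so the 474 regions were 6.51% of them. A further 5028 held a peak of replicate 1 only and 1775 of replicate 2 only. The 474 regions took in 8.75% of the peaks of replicate 1 and 21.3% of the peaks of replicate 2. The NANOG fold enrichment at 8 h, the ratio of fragments at the summit to the local background, had a median of 5.63 over the 474 regions in replicate 1 and 5.65 in replicate 2. Because these folds chose the regions, they are a description. The regions were 138 to 6489 bp long, with a median of 318.5 bp, and had a peak in a median of 23 of the 30 lists. Of the 474 regions, 383 had a peak in at least 20 lists. These counts include the 2 lists that chose the regions, and were not made for other NANOG regions.

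**Figure D1:**
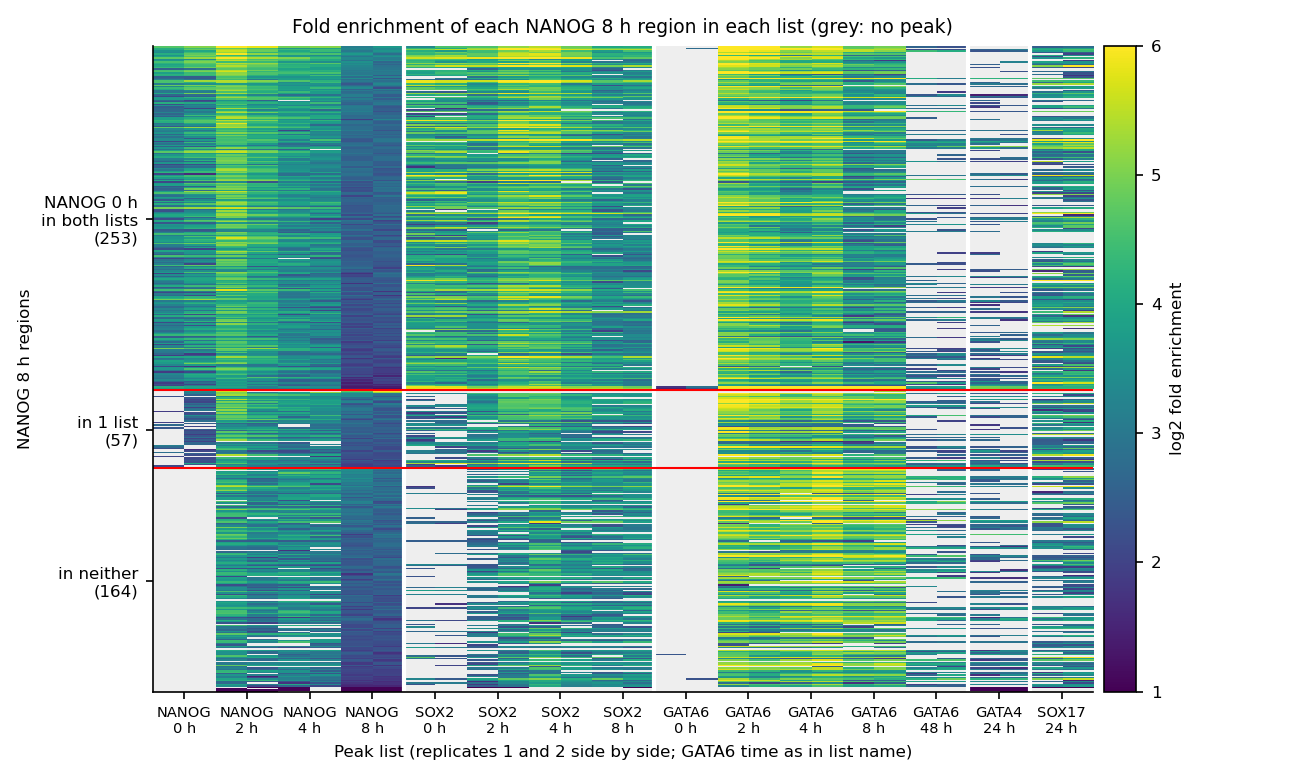
Each row is 1 of the 474 NANOG 8 h regions and each column 1 of the 30 peak lists, with the log2 fold enrichment as colour (colours end at 1 and 6) and grey where the list has no peak. Rows are grouped by NANOG at 0 h, in both lists (253 regions), in 1 list (57) or in neither (164), and within a group ordered by 8 h fold. The GATA6 0 h columns are almost empty, and the lowest group is mostly grey in the SOX2 0 h columns but not at 2, 4 and 8 h.

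NANOG had been at nearly all of these regions before 8 h, and most strongly at 2 h. A NANOG peak of both lists was present at 253 regions before induction (53.4%), at 452 after 2 h (95.4%) and at 439 after 4 h (92.6%). Over all 21857 NANOG regions these shares were 34.6%, 87.3% and 31.9%. By list, 55.7% and 63.1% of the regions held a peak at 0 h, 97.7% and 96.0% at 2 h, and 95.6% and 94.7% at 4 h. The mean share was 35.8 percentage points higher at 4 h than at 0 h, and the lists at 0 h did not overlap those at 2 and 4 h. The exact permutation test over the 6 lists gave p = 0.0667, which is the smallest p that 6 lists allow, and 0.0833 after adjustment over 5 tests. With the peaks of 1 NANOG 8 h list as the regions, this difference was 18.2 points for replicate 2 and 9.55 points for replicate 1.

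The fold was highest at 2 h and lowest at 8 h. Median folds of the regions with a peak were 9.24 and 11.3 at 0 h, 20.1 and 13.9 at 2 h, 11.3 and 10.6 at 4 h, and 5.63 and 5.65 at 8 h. Among the 250 regions with a peak in all 8 NANOG lists, 235 had their highest mean fold at 2 h and 223 their lowest at 8 h. The median of their mean folds was 11.8 before induction, 21.7 after 2 h, 11.5 after 4 h and 5.77 after 8 h. These 250 regions were thus at about the same median fold at 0 and 4 h, and no test was made of these medians. Such counts and medians were not worked out for other NANOG regions. Of all 21857 NANOG regions, 87.3% held a peak of both 2 h lists, so a high at 2 h may not be particular to the 250. Whole lists were low at 8 h too: the median fold of all peaks in a list ranged from 4.64 to 4.78 there, against 5.17 to 5.78 earlier. Because the 8 h peaks chose the regions, their low at 8 h is only a description.

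**Figure D2:**
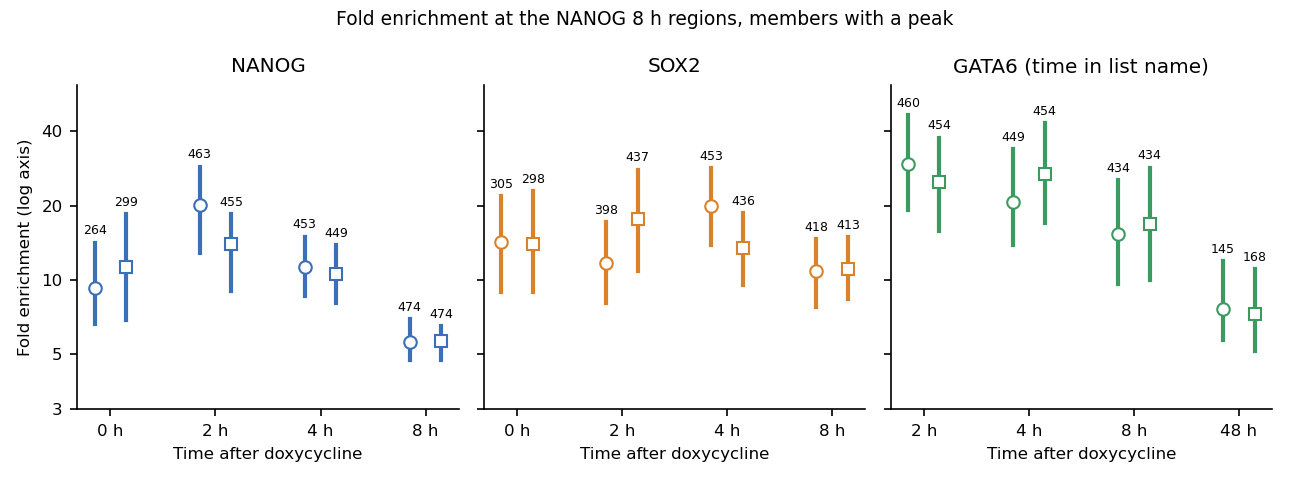
Fold enrichment (log axis) of NANOG, SOX2 and GATA6 at the 474 NANOG 8 h regions, by time. Circles (replicate 1) and squares (replicate 2) are medians over the regions with a peak in that list, bars are the middle 50% of the regions, and the number above is how many regions had a peak. NANOG medians go from 20.1 and 13.9 at 2 h to 5.63 and 5.65 at 8 h, while SOX2 medians at 8 h are 10.9 and 11.1.

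The regions were among the strongest NANOG sites of 4 h, though not simply the top of that list. The 4 h lists shared 6910 regions, of which 440 overlapped the regions kept at 8 h. The median mean fold at 4 h of these 440 was 11.1, against 6.58 for the other 6470, and their median rank was at the 90.6th percentile. Of the 100 strongest 4 h regions 65 were kept at 8 h, and of the 474 strongest 185 (39.0%). There were 36 kept regions below the median fold of the 4 h regions.

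Peaks were called by q-value, so a low fold need not mean a weak call. The 5 regions with the lowest 8 h fold, by the lower of both lists, all lay in introns of Def8 on chromosome 8. Their folds were between 1.40 and 1.74 in replicate 1 and between 1.29 and 1.46 in replicate 2. Def8 was the nearest gene of 6 regions, the most of any gene, and none of the 6 had a GATA6 peak in a list of induced cells. The strongest regions left out, with a peak in only 1 list, lay near Sh3bp4 (fold 12.7), Ptpn22 (11.7), Mycn (10.6), Crybg3 (10.2) and Btbd11 (9.97), above the median of the regions kept. They had a peak in 18 to 27 of the 30 lists.

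SOX2 was present at most NANOG 8 h regions, and at 8 h more often than at other NANOG sites. A SOX2 peak of both lists lay at 283 regions before induction (59.7%), 392 after 2 h (82.7%), 434 after 4 h (91.6%) and 394 after 8 h (83.1%), against 43.3%, 54.5%, 54.2% and 24.4% of all NANOG regions. By list the share was 64.3% and 62.9% at 0 h, 84.0% and 92.2% at 2 h, 95.6% and 92.0% at 4 h, and 88.2% and 87.1% at 8 h. The 0 h lists lay below all others, and the ranges of 2 and 4 h overlapped. Across time the difference did not pass the test (exact permutation p = 0.0667, adjusted 0.0833; smallest possible p 0.00952). It passed at an unadjusted exact permutation p of 0.0476 among the 118 regions whose peaks had a −log10 q of 5 or more, and of 0.0286 with 11540 peaks in every SOX2 list and 2255 in every NANOG list, which leaves 374 regions. It also passed without SOX2 2 h replicate 1 (exact permutation p = 0.0286) or replicate 2 (0.00952), and with the peaks of NANOG 8 h replicate 2 alone as the regions (0.0381). The mean share was 24.1 points higher at 8 h than at 0 h, or 5.96 points with the peaks of NANOG 8 h replicate 2 alone and 3.06 points with those of replicate 1 alone.

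The regions were compared with the 6470 regions of both NANOG 4 h lists that overlapped none of the 474, of which 12.3% still held a peak of NANOG 8 h replicate 1 and 8.08% of replicate 2. In each of the 8 SOX2 lists the NANOG 8 h regions had the higher share. The difference was 13.0 percentage points before induction, 11.2 after 2 h, 8.30 after 4 h and 27.8 after 8 h (means of 2 lists). At 8 h the share was 87.7% ± 0.746 (SD, n = 2) at the NANOG 8 h regions and 59.8% ± 0.995 at the others. The mean difference over the lists was 15.1 points and passed the exact sign-flip permutation test (two-sided p = 0.00781, the smallest that 8 lists allow, adjusted 0.0195). These lists score the same 2 sets of regions at different times. The p therefore does not cover how the 2 NANOG 8 h lists chose the regions. Limited, by a choice made after seeing the data, to the strongest 20% of the 4 h regions by 4 h fold, 316 that overlapped a region kept at 8 h and 1066 that did not, the mean difference was 9.44 points (exact permutation p = 0.00781). Of these 316, 94.9% and 95.6% held a SOX2 8 h peak, against 76.8% and 77.1% of the 1066. Within this 20% the 316 still had the higher median 4 h fold, 12.8 against 10.8. With the equal numbers of peaks per list given above, and 374 regions, the mean difference was 4.68 points (exact permutation p = 0.0234). The direction depended on the rule that both NANOG 8 h lists hold a peak: with the 2255 peaks of replicate 2 alone the difference was -22.9 points, and with the 5510 of replicate 1 alone it was -42.3 points. With 1 of the NANOG 4 h lists left out it was 37.0 points in either case. In these settings 1 set needed a peak of only 1 list and the other a peak of both. The sets were then chosen by unlike rules.

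The SOX2 fold differed less between times than the NANOG fold did. Median SOX2 folds of the regions with a peak were 14.3 and 14.0 at 0 h, 11.7 and 17.7 at 2 h, 20.0 and 13.5 at 4 h, and 10.9 and 11.1 at 8 h. At 2 and 4 h the replicates lay further apart than the means of any pair of times. SOX2 had a peak in all 8 lists at 237 regions and in none at 13. Over all NANOG regions these were not counted, but peaks in all 8 lists can be at no more than 24.4%, the share with both SOX2 8 h lists. The 5 regions with the highest mean SOX2 fold at 8 h were an intron of Sdk1 nearest to Foxk1 (51.0 and 36.6), an intron of Nt5e, which encodes an ecto-nucleotidase (39.6 and 43.5), a mitochondrial region (44.9 and 36.7), an intron of Chn2 (35.5 and 44.3) and a site 367819 bp downstream of Wdr20rt (31.2 and 42.3). Apart from the mitochondrial region, these 4 sites also had SOX17 folds between 17.6 and 91.9 at 24 h.

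**Figure D3:**
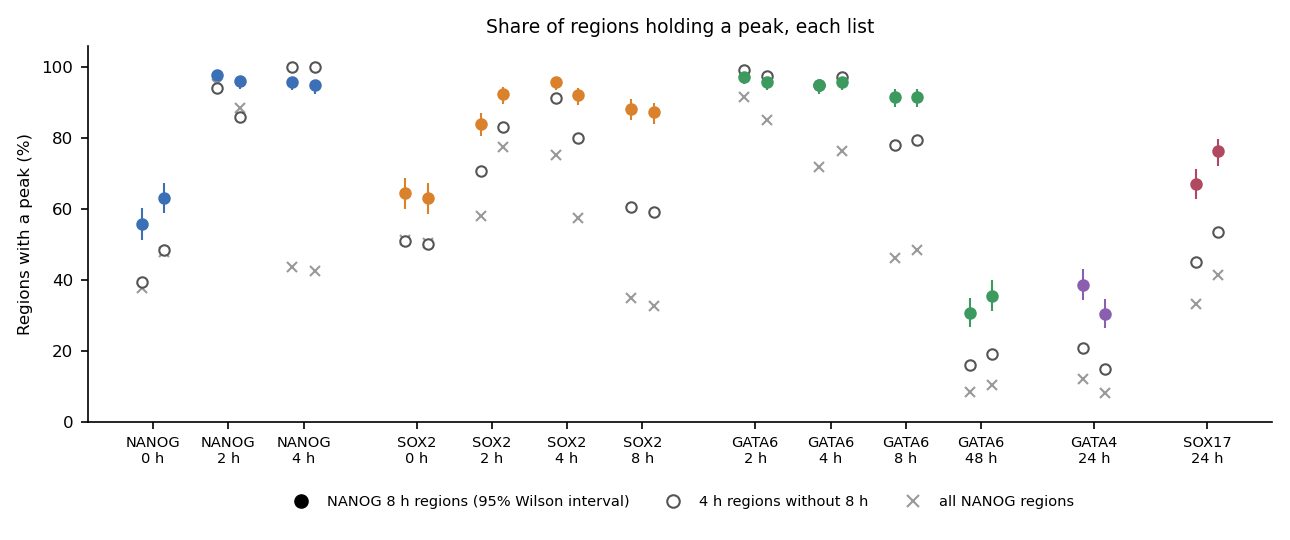
Percent of regions with a peak in each list. Filled circles are the 474 NANOG 8 h regions with the 95% Wilson interval (counting error only), open circles the 6470 other 4 h regions, and crosses all 21857 NANOG regions; the 2 lists of a group stand side by side, and GATA6 times are those in the list names. At SOX2 8 h the filled circles are at 88.2% and 87.1% and the open circles at 60.5% and 59.1%, while at GATA6 2 h the open circles are slightly higher.

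GATA6 lay at almost every one of the regions by 2 h. A GATA6 peak of both lists lay at 454 regions (95.8%) in the lists named 2 h, at 449 (94.7%) in those named 4 h, at 424 (89.5%) in those named 8 h and at 129 (27.2%) in those named 48 h, against 83.3%, 67.6%, 41.2% and 6.69% of all NANOG regions. At 0 h, before doxycycline, 3 and 4 regions held a peak. By list the shares were 97.0% and 95.8% at 2 h, 94.7% and 95.8% at 4 h, 91.6% and 91.6% at 8 h, and 30.6% and 35.4% at 48 h. Across all 10 lists the share differed (exact permutation p = 0.00212, adjusted 0.0106), but these include the lists from before doxycycline, so a difference was fixed beforehand. Without the 0 h lists the exact permutation p was 0.0190. The share fell by 63.4 percentage points between the lists named 2 h and 48 h. By the record, the lists with 30.6% and 35.4% are 4 h and those with 91.6% are 48 h, so the change from 2 to 48 h is then -4.85 points, while the test is the same because the lists pair up the same way. By list name, the change was -26.0 points with the peaks of NANOG 8 h replicate 1 alone as the regions. With equal numbers of peaks per list it was -49.3 points at 5933 peaks in each list of induced cells (exact permutation p = 0.0190, a setting chosen after seeing the data), and -5.88 points at the 86 peaks of the shortest 0 h list, both over 374 regions.

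GATA6 fold was highest at 2 and 4 h. Median folds were 29.6 and 25.0 at 2 h, 20.7 and 26.9 at 4 h, 15.4 and 16.9 at 8 h and 7.65 and 7.30 at 48 h. There were 421 regions (88.8%) with a peak in all 6 lists named 2, 4 and 8 h. Over all NANOG regions this share was not counted, but can be no more than the 41.2% with peaks in both lists named 8 h. Against the 6470 other 4 h regions, the difference in share was -1.88 points in the lists named 2 h, -0.782 in those named 4 h, 12.9 in those named 8 h and 15.5 in those named 48 h. The mean difference of 6.43 points over the 8 lists did not pass the exact sign-flip permutation test (two-sided p = 0.125, adjusted 0.125, positive in 4 of 8 lists), and the signs differ between the times. It passed at equal numbers of peaks per list (3.98 points at 86 GATA6 peaks, exact permutation p = 0.00781, and 4.83 points at 5933, p = 0.0156) and against all 21383 NANOG regions of 0, 2 or 4 h (24.9 points, p = 0.00781). Without NANOG 4 h replicate 1 or 2 it was 26.2 points (exact permutation p = 0.00781), and with the peaks of NANOG 8 h replicate 2 or 1 alone as the regions it was -28.4 and -46.8 points. Here too, 1 set needed a peak of only 1 list and the other a peak of both.

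By list name, peaks of all 3 factors at 8 h often lay in the same region. The peaks come from separate libraries, so they do not show binding to the same DNA molecule. By the record these GATA6 lists are 48 h. A peak of both SOX2 8 h lists and of both GATA6 lists named 8 h lay at 380 of the 474 regions (80.2%), against 2820 of the 6470 others (43.6%). The distance between the NANOG 8 h summit and the summit of the other factor had a median of 70.5 and 69.0 bp for SOX2 8 h and of 63.0 and 68.5 bp for GATA6 named 8 h. Between 64.4% and 68.0% of these summits lay within 100 bp of the NANOG summit. Such distances were not particular to 8 h. Medians were 67.0 and 82.5 bp for SOX2 0 h, 67.0 and 62.5 bp for GATA6 2 h, and 68.0 and 73.0 bp for SOX17 24 h. A peak entered only if it overlapped the region, and the regions had a median length of 318.5 bp, which limits these distances. Distances at other NANOG regions were not measured, and no test was made.

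The PrE factors of 24 h were found at a part of the regions. GATA4 had a peak of both lists at 133 regions (28.1%), against 6.72% of all NANOG regions, and SOX17 at 312 (65.8%), against 30.8%. By list the shares were 38.6% and 30.4% for GATA4 and 67.1% and 76.2% for SOX17. At the 6470 other 4 h regions they were 20.6% and 14.9%, and 44.9% and 53.4%. Both lists of each factor were thus higher at the NANOG 8 h regions, by 16.8 points for GATA4 and 22.5 points for SOX17 on average, which was not tested because there is 1 time with 2 lists. With the peaks of NANOG 8 h replicate 2 or 1 alone as the regions, the mean GATA4 share was 14.3% and 7.99%, and the mean SOX17 share 39.5% and 21.3%. Median folds were 6.43 and 6.85 for GATA4 and 10.3 and 10.9 for SOX17. Peaks in all 6 lists of GATA4, SOX17 and GATA6 named 48 h lay at 88 regions, and 96 regions (20.3%) had none in any of them. Over all NANOG regions these counts were not made, and both GATA6 lists named 48 h had a peak at 6.69%.

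NANOG at 0 h split the regions into 253 with a peak in both lists, 57 with a peak in 1 list and 164 with none. Of the 253 regions, 95.3% and 96.0% held a SOX2 0 h peak, and 93.7% and 93.7% a SOX2 8 h peak. Of the 164 regions, 17.1% and 14.6% held a SOX2 peak at 0 h, then 62.8% and 81.1% at 2 h, 90.2% and 83.5% at 4 h, and 82.3% and 81.1% at 8 h. All later lists were above both 0 h lists. The other 4 h regions were split alike: SOX2 0 h peaks lay at 92.2% and 92.9% of those with NANOG in both 0 h lists and at 15.6% and 14.4% of those with none, and SOX2 8 h peaks at 64.6% and 64.0%, and 57.4% and 55.6%. Over all NANOG regions the SOX2 0 h shares were 84.7% and 85.9%, and 23.1% and 21.4%. The grouping used only the NANOG 0 h lists, and no test was made between the groups.

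GATA6 followed a different course in both groups. At the 253 regions the median GATA6 fold was 31.4 and 26.0 at 2 h, 18.5 and 24.5 at 4 h, and 11.8 and 12.8 at 8 h. At the 164 regions it was 25.6 and 22.5 at 2 h, 27.1 and 35.1 at 4 h, and 23.7 and 26.8 at 8 h. Among regions with a peak in the lists named 8 h, the 164 therefore had the higher median GATA6 fold. Their NANOG 8 h fold hardly differed (medians 5.40 and 5.53 against 5.69 and 5.65). The share with a GATA6 peak in these lists went the other way, at 94.9% and 94.5% of the 253 and 87.8% and 87.8% of the 164. At the other 4 h regions this share was 67.8% and 69.9% with NANOG in both 0 h lists and 86.0% and 87.2% with none. GATA4 peaks lay at 33.6% and 26.5% of the 253 and at 44.5% and 36.0% of the 164, while SOX17 peaks lay at 72.3% and 79.1% of the 253 and at 55.5% and 70.1% of the 164. The order was the same at the other 4 h regions, where GATA4 shares were 16.3% and 11.1% with NANOG in both 0 h lists and 23.7% and 17.8% with none, and SOX17 shares 51.0% and 60.7%, and 38.7% and 45.9%.

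**Figure D4:**
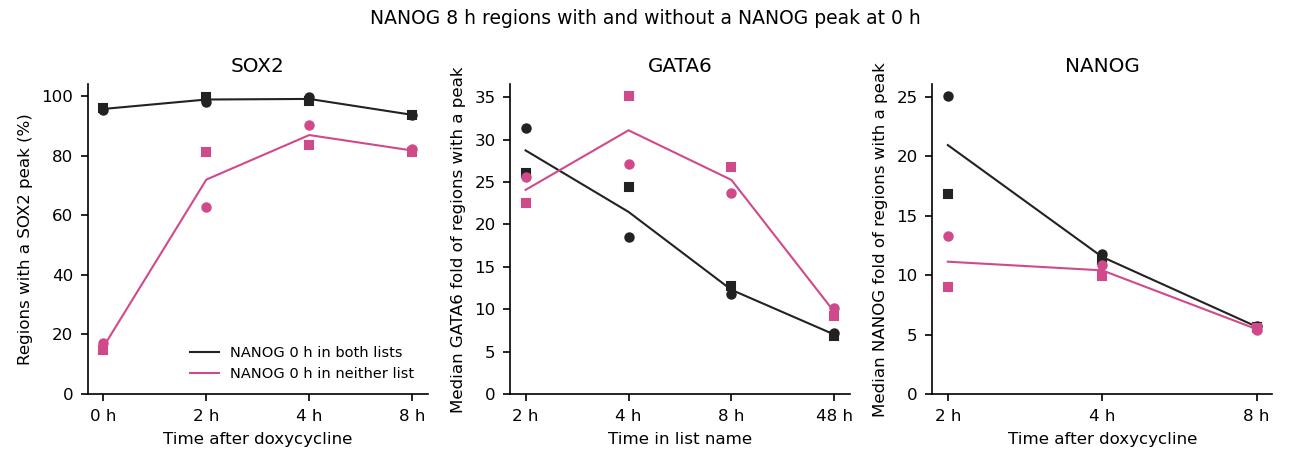
NANOG 8 h regions with NANOG in both 0 h lists (black, 253 regions) and in neither (pink, 164 regions). Circles are replicate 1, squares replicate 2, and lines join the means; the left panel gives the percent of regions with a SOX2 peak, the other panels the median fold of regions with a peak of GATA6 (time in list name) and NANOG. SOX2 starts at 17.1% and 14.6% in the pink group, GATA6 at 8 h is 23.7 and 26.8 in pink and 11.8 and 12.8 in black, and NANOG at 8 h is 5.69 and 5.65 in black and 5.40 and 5.53 in pink.

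The letters under the summits differed between these groups as well. AGATAA or its reverse complement was found within 100 bp of the summit at 58 of the 253 regions (22.9%) and at 80 of the 164 (48.8%). Over the 474 regions the share was 34.0%, against 37.0% of the 6470 other 4 h regions and 25.1% of all NANOG regions. The other 4 h regions showed the same split, with 19.7% and 52.5%. ACAAAG was found at 32.0% of the 253 and 17.1% of the 164, ACAATG at 22.5% and 17.7%, TAATGG at 11.5% and 12.8%, and the octamer ATGCAAAT at 3.16% and 2.44%. Over all 474 regions ACAAAG was at 25.3%, ACAATG at 20.9%, TAATGG at 12.7% and the octamer at 2.95%, against 28.6%, 21.2%, 10.8% and 4.82% of all NANOG regions.

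Most NANOG 8 h regions lay away from promoters. Of the 474 summits, 58 (12.2%, 95% Wilson interval 9.59% to 15.5%) lay within 1000 bp of a protein-coding transcription start site, 7 (1.48%) in other exons, 181 (38.2%) in introns and 226 (47.7%) between genes. The promoter share was 8.79% at the 6470 other 4 h regions and 10.2% over all NANOG regions. With −log10 q of at least 5 it was 7.63% at the NANOG 8 h regions. The interval covers counting error only, so it is no test between these sets, and none was made. The median distance to the nearest start was 23308 bp, and 167 regions (35.2%) were more than 50 kb away. The remaining 2 regions were mitochondrial, with a peak in all 30 lists, also those of GATA6 before induction. The promoter share was 9.88% at regions with NANOG in both 0 h lists and 14.0% at those with none.

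**Figure D5:**
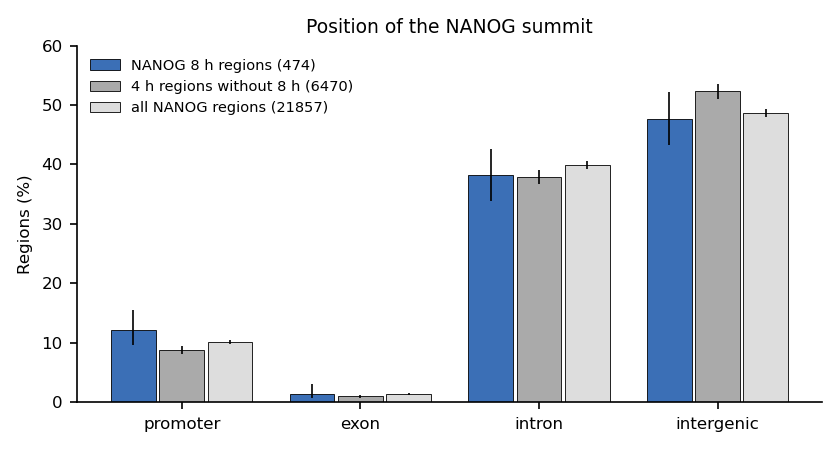
Percent of NANOG summits in promoters (within 1000 bp of a protein-coding start), other exons, introns and between genes, for the 474 NANOG 8 h regions, the 6470 other 4 h regions and all 21857 NANOG regions. Bars start at 0 and error bars are 95% Wilson intervals for counting error only; promoters hold 12.2%, 8.79% and 10.2%.

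The highest NANOG folds at 8 h belonged to 2 unusual regions. An intronic region in Hectd4 (chr5:121333322-121333459) had folds of 28.3 and 86.7 at 8 h, 12.1 in 1 list at 0 h and 51.8 in 1 list at 2 h, and no SOX2 peak. A region 7517 bp downstream of the start of Prf1 (chr10:61307232-61307403), the perforin gene, had 16.5 and 38.5 at 8 h and 14.9 and 36.3 at 4 h, and neither a SOX2 nor a GATA6 peak. Their replicates differed by more than 2 times, and they were the only regions of the 474 with a mean fold above 12.

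The other 8 of the 10 highest carried SOX2 and GATA6. The region at the start of Rbpj (chr5:53466957-53467904), the DNA-binding effector of Notch, had NANOG folds of 34.2 and 32.7 at 0 h, 76.5 and 47.7 at 2 h, 29.5 and 32.6 at 4 h and 12.8 and 9.56 at 8 h. Its SOX2 fold was 19.4 and 25.1 at 8 h, and GATA6 went from 104 and 90.0 at 2 h to 27.1 and 32.3 at 8 h. The region 2194 bp upstream of Mrps23 (chr11:88202085-88202450), a mitochondrial ribosome gene, had 25.3 and 33.8, 74.8 and 56.8, 30.5 and 34.0, and 8.83 and 13.1 NANOG fold at the same times. In both, all 2 h values were above all 8 h values.
The region 25924 bp upstream of Hk2 (chr6:82800241-82800711), which encodes a hexokinase, had no NANOG or SOX2 peak at 0 h. Its NANOG fold was 32.8 and 15.2 at 2 h, 17.4 and 22.0 at 4 h and 12.1 and 9.21 at 8 h, its SOX2 fold went from 5.15 and 13.3 at 2 h to 24.6 and 18.8 at 8 h, and its GATA6 fold from 50.5 and 42.5 to 69.7 and 79.8. It was the only one of these 8 with no NANOG peak at 0 h. Of the remaining 5, those reported here lay at the start of Prrt3 (NANOG 8 h folds 9.97 and 10.4), in introns of Nt5e (9.47 and 10.6) and BC052040 (10.3 and 9.56), and 9266 bp upstream of Pla2g7, a phospholipase (12.8 and 6.96).

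The nearest genes were 431 protein-coding genes, which is 1.97% of the 21829 annotated, and 398 of them had 1 region. The nearest start is a label of position and does not say which gene a region acts on. Of the fixed gene lists, 6 of 28 Epi genes, 2 of 24 PrE genes, 1 of 12 trophectoderm genes and 5 of 19 signalling genes were nearest to a region. All 28 Epi genes, 19 of the PrE, 8 of the trophectoderm and 18 of the signalling genes were nearest to at least 1 of the 21857 NANOG regions, against 39.0% of all genes, and no test of the lists was made.

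Among Epi genes, Klf5, a naive pluripotency factor, had a region 23217 bp upstream (chr14:99275383-99275571). It held no NANOG or SOX2 peak at 0 h, NANOG folds of 13.9 and 10.1 at 2 h and 7.12 and 6.85 at 8 h, and SOX2 folds of 21.1 and 18.1 at 8 h. The region 18996 bp upstream of Tet2 (chr3:133563857-133564298), an enzyme that oxidises methylcytosine, likewise had none at 0 h and NANOG folds of 5.11 and 8.92 at 8 h. Both regions thus had their first NANOG and SOX2 peaks at 2 h, with GATA6 2 h folds of 58.8 and 45.2 near Klf5 and 71.0 and 57.2 near Tet2.
The region 111013 bp downstream of Sox2 (chr3:34761298-34761502), a side of the gene known to hold its main stem cell enhancer, had a NANOG peak in all 8 lists. The NANOG folds were 6.70 and 17.1 at 0 h, 26.2 and 15.8 at 2 h, 10.7 and 6.44 at 4 h and 3.58 and 5.65 at 8 h. SOX2 fold was 20.5 and 19.7 at 0 h and 10.3 and 6.50 at 8 h, and GATA6 fold was 2.46 and 3.68 at 8 h. Both SOX2 values at 8 h were below both at 0 h.
Lefty2, a Nodal antagonist, had a region 4198 bp upstream (NANOG 8 h folds 4.51 and 5.80), and Tdgf1, a Nodal co-receptor, one at 1183 bp upstream (5.08 and 4.35). Tbx3, a T-box pluripotency factor, had 2 regions about 5 kb apart, at 85715 and 90618 bp upstream, both in the antisense gene Tbx3os1, with 4.47 and 4.82, and 2.62 and 3.94. SOX17 was high at the second of these, with folds of 63.5 and 50.6 against 12.7 and 15.8 at the first.

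Among PrE genes, Gata6 itself had a region 47617 bp upstream (chr18:11004264-11004511), inside the non-coding gene 1010001N08Rik. It had no NANOG or SOX2 peak at 0 h, NANOG folds of 9.39 and 5.12 at 2 h and 4.09 and 4.31 at 8 h, and GATA6 folds of 36.7 and 32.6 at 2 h, 17.4 and 31.1 at 8 h and 9.03 and 14.8 at 48 h. GATA4 (4.11 and 3.21) and SOX17 (15.4 and 13.1) also had peaks there. The region 44140 bp upstream of Lamc1, which encodes laminin gamma 1 of the basement membrane, held NANOG in every list, from 6.65 and 8.06 at 0 h to 32.8 and 17.1 at 2 h and 8.93 and 4.78 at 8 h. Its GATA6 fold was 103 and 94.7 at 2 h and 20.3 and 19.8 at 48 h.
Gata3, a trophectoderm regulator, was the nearest gene of 2 regions far downstream, at 432511 and 208721 bp. Their NANOG 8 h folds were 8.07 and 8.26, and 8.54 and 5.65. The first had GATA6 folds of 22.2 and 13.7 at 2 h and 7.42 and 4.54 at 8 h, and no GATA6 peak at 48 h.

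The signalling genes were Spry2, Spry4, Il6st, Socs3 and Id3. Spry2, an inhibitor of FGF and ERK signalling, had a region 93990 bp downstream with no NANOG peak at 0 h, NANOG folds of 9.49 and 4.35 at 8 h, and a GATA6 fold of 129 and 97.6 at 2 h. Its other region, 4040 bp upstream, held NANOG in all 8 lists (6.93 and 3.35 at 8 h). Spry4, of the same family, had one 27395 bp downstream, with NANOG in 1 of the 0 h lists, 43.2 and 22.9 at 2 h and 4.75 and 4.35 at 8 h, and SOX17 at 43.4 and 59.6. In these 3 regions both 2 h NANOG values were above both 8 h values.
Il6st, the gp130 subunit of the LIF receptor, had 2 regions, 24509 and 51037 bp upstream, with NANOG 8 h folds of 5.71 and 5.85, and 5.22 and 3.91. Socs3, the feedback inhibitor of that pathway, had one 34760 bp downstream with SOX2 (9.18 and 8.89) but no NANOG peak at 0 h, and NANOG folds of 4.62 and 6.09 at 8 h. It was the weakest of the signalling regions at 2 h, with 4.75 and 5.40. Id3, a target of BMP signalling, had a region 3463 bp downstream with 14.7 and 22.0 at 0 h, 32.6 and 30.2 at 2 h and 11.1 and 6.21 at 8 h.

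A few regions had no earlier NANOG or no GATA6. Only 4 of the 474 had no NANOG peak at 0, 2 or 4 h, near Ppp1r8 (8 h folds 6.00 and 4.64), Dennd6b (4.37 and 5.65), Olfr1120 (4.27 and 4.78) and Depdc5 (4.75 and 3.91). All but the promoter of Dennd6b had a peak in no other list. The region nearest to Ppp1r8 lay in an untranslated exon of Stx12, and that of Depdc5 in its coding sequence. There were 11 regions without GATA6 in any list of induced cells: that near Prf1, those near Ppp1r8, Olfr1120 and Depdc5, 1 upstream of Bmp6, a BMP ligand (8 h folds 4.60 and 4.47), and the 6 of Def8. The Dennd6b promoter had a SOX2 peak in 3 lists and a GATA6 peak in 6.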

How the data were processed

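The authors' methods state that CUT&RUN reads were aligned by the authors to mm10 with Bowtie2, that fragments under 120 bp and duplicates were kept and blacklisted reads removed, and that narrow peaks were called with MACS for each library against a rabbit anti-rabbit control. The deposited lists give for each peak a fold, which is a ratio, and −log10 p-values and −log10 q-values. Every deposited peak had a q-value at or below 0.05. The lists give no read totals, so depth was the background coverage recovered from fold and p-value. In the GATA4 lists it could not be recovered, and those of GATA6 at 0 h are uncertain, with 3 and 5 of 30 value pairs at 1 background.

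Groups came from the sample titles; 27 of the 57 samples, without peak lists, were not analysed here. Peaks overlapping by 1 bp were merged, and a region's fold in a list is that of its highest peak. GENCODE vM21 and GRCm38.p6 gave genes and sequence, and coordinates are 1-based. Shares across times were tested by two-sided exact permutation of F over lists, and differences from other regions by exact sign flips over lists. The sign flips take the regions as given. P-values were adjusted over 5 tests by the Benjamini-Hochberg method. Wilson 95% intervals cover counting error only. Scripts ran in Python 3.11.15 with scipy 1.17.1 and were tested on simulated peak lists. Alternatives changed the q threshold, the overlap, list lengths, each list, the pairing and the compared regions. The regions, gene lists and motifs were chosen with earlier results of these data known. Named regions are the 10 highest and 5 weakest by 8 h fold, all nearest to a listed gene, those without earlier NANOG or without GATA6, the 5 highest by SOX2 and the 5 strongest of 1 list only. Of the 10 highest, 1 region is not reported here.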

Additional observations from a re-analysis of the deposited data

Results flagged for a closer look

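By list name, the difference in GATA6 share between the NANOG 8 h regions and the other 4 h regions changed sign with time. In the lists named 2 h it was -2.13 and -1.62 percentage points and in those named 4 h -0.220 and -1.34 points. In the lists named 8 h it was 13.6 and 12.1 points and in those named 48 h 14.6 and 16.4 points. From 2 h, the mean difference was 14.7 points higher at 8 h and 17.4 points higher at 48 h. From 4 h, it was 13.6 points higher at 8 h and 16.3 points higher at 48 h. Every list named 2 or 4 h lay below 0 and every list named 8 or 48 h above it. This change was not tested. In the lists named 2 and 4 h nearly all regions of both sets held a peak, which leaves little room for a difference. Mean shares were 96.4% and 95.3% at the NANOG 8 h regions and 98.3% and 96.0% at the other 4 h regions. Of the 474 NANOG 8 h regions, 11 had no GATA6 peak in any list of induced cells. By the record, the lists named 4, 8 and 48 h are 8, 48 and 4 h.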

How the results depend on the processing

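The number of regions was 443 with an overlap of at least 50% of the shorter peak, 374 with 2255 peaks in each NANOG list, 425 with summits within 200 bp and 118 with −log10 q of at least 5. With that stricter q, the GATA4 share was 25.8%, the SOX17 share 63.6% and the promoter share 7.63%, and the SOX2 share was 27.5 points higher at 8 h than at 0 h (exact permutation p = 0.0476). With equal list lengths that difference was 33.2 points (exact permutation p = 0.0286). The GATA6 difference, which did not pass as reported, passed in 4 settings: 3.98 points with 86 peaks per GATA6 list (exact permutation p = 0.00781), 4.83 points with 5933 per list of induced cells (p = 0.0156, chosen after seeing the data), 24.9 points against all 21383 NANOG regions of 0, 2 or 4 h (p = 0.00781), and without either NANOG 4 h list. It was 8.65 points without the 16 regions that had no SOX2 peak, no GATA6 peak after induction or were mitochondrial, but leaving out regions for lacking GATA6 raises it by construction, so this value supports nothing. Within 5 kb of a start the promoter share was 21.7%.

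Leaving out 1 list at a time moved the number of regions to between 2255 and 5510, the SOX2 difference between 8 and 0 h to between 3.06 and 24.8 points, the GATA6 change between the lists named 2 and 48 h to between -65.8 and -26.0 points (-4.85 points by the recorded times), and the NANOG difference between 4 and 0 h to between 9.55 and 39.5 points. Against the other 4 h regions the SOX2 difference lay between -42.3 and 37.0 points and the GATA6 difference between -46.8 and 26.2 points. Both were negative only where 1 NANOG 8 h list defined the regions: -22.9 and -28.4 points with replicate 2 alone, and -42.3 and -46.8 points with replicate 1 alone. There the compared regions still needed a peak of both NANOG 4 h lists. The highest values came from leaving out a NANOG 4 h list, where the compared regions needed a peak of only 1. The GATA4 share lay between 7.99% and 38.6%, the SOX17 share between 21.3% and 76.2%, and the promoter share between 8.71% and 14.1%. Without SOX2 2 h replicate 1 or 2 the SOX2 change across time passed, with exact permutation p = 0.0286 and 0.00952. Fewer lists or peaks entered most of these settings by construction, but leaving out a NANOG 8 h list gave more regions. Most of those had a peak in only 1 of the 8 h lists. Beyond that, the cause of the changes was not tested. The 50% overlap and the summit rule changed no call.

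Replicate numbers were not shown to pair the lists: over 15 pairs of times, deviations of same-numbered lists correlated between -0.0486 and 0.0217. With permutation within the replicate number as a replicate block, the exact p was 0.167 for the SOX2 difference of 24.1 points, 0.0167 for the GATA6 change of -63.4 points and 0.167 for the NANOG difference of 35.8 points, so no call changed. The SOX2 lists were the shallowest of the induced time course, which limits what their absent peaks say.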
